A study of Mus musculus with 7 samples.

Results

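The genes described here are 46 cell cycle and mitosis genes in type 1 conventional dendritic cells (cDC1) sorted from mouse spleen. They were listed by name, with earlier results of these data known. A named probe set measured 42 of the 46, out of 19505 named genes on the arrays. Ccnb1, Ccnd1, Foxm1 and Mcm7 were not analysed here. By role, 14 of the 42 act in S phase, 20 in mitosis and 5 at the G1 to S transition, and 3 are transcription factors. All cells came from C57BL/6 mice bearing B16-OVA tumors, a mouse melanoma line that expresses ovalbumin. The 3 WT arrays are from wild-type mice, and the 4 KO arrays are from mice with a CD11c-Cre transgene and floxed Opa1 alleles. CD11c drives the Cre in dendritic cells and in other CD11c-positive cells, so the deletion is not restricted to cDC1. The labels give no age, and nothing in them ties an array to a mouse of its own. The p-values thus cover the spread among these 7 arrays alone, part or all of which may be technical. Values are on a log2 scale, and a difference is KO minus WT throughout. Values of single genes are listed in the order WT 1 to WT 3, then KO 1 to KO 4.

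A cell that divides passes through G1, S phase, G2 and mitosis. Cyclins D and E with their kinases release E2F factors, which switch on genes that license origins, unwind DNA and supply nucleotides. Later, the MuvB complex with B-Myb and FOXM1 switches on genes of the spindle, kinetochore and cytokinesis. Pre-dendritic cells divide on their way from marrow to tissue, and a part of the cDC1 pool in spleen still cycles. Tumor cells such as B16 divide rapidly.

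Opa1, the gene targeted in KO, had values of 8.14, 8.80 and 9.15 in WT and of 7.70, 7.10, 6.85 and 8.24 in KO. The groups overlapped, since the array labelled KO 4 lay above WT 1 (limma, adjusted p = 0.223), so arrays are named here as labelled. The arrays labelled WT 1 and WT 2 also went against the sorted cell type. Cd8a, a marker of resident splenic cDC1, read 7.89 and 6.96 on them, 12.11 on WT 3 and 11.95 to 12.12 in KO. It had the widest difference of 5 such markers, which averaged 9.46, 8.44 and 10.95 in WT and 10.72 to 10.83 in KO. On WT 1 the resident marker Cd24a, at 9.54, went the other way and lay above all KO arrays (9.23 to 9.45). Xcr1, the cDC1 chemokine receptor, was lowest on WT 2, at 7.97, with 12.12 on WT 1, 12.76 on WT 3 and a KO range of 12.70 to 12.79. Ptprc, the pan-leukocyte antigen CD45, read 12.68 and 12.56 on WT 1 and WT 2, 13.05 on WT 3 and 12.97 to 13.09 in KO. Of 22 measured melanocyte lineage markers, 18 had all KO values below all WT values (81.8%, with 5.92% of all genes). That list averaged 11.23, 11.52 and 8.96 in the WT arrays and 7.60 to 8.11 in the KO arrays. The place of WT 3 alone against the KO arrays is therefore given for the main counts, and for all 42 members in the plot of differences. WT 3 also stood apart from KO in markers of some other cells. Relative to the KO mean, WT 3 was at 0.54 for monocyte and macrophage genes (KO range -0.32 to 0.21). For 9 of those 11 genes it lay above all KO arrays (81.8%, with 18.1% of all genes). It was at 0.41 for cDC2 genes (KO range -0.36 to 0.20) and at 0.45 for plasmacytoid dendritic cell genes (KO range -0.09 to 0.06). For T and NK cell genes it was at 0.39, inside the KO range of -0.62 to 0.45. The part of these signals in the WT 3 values was not tested. In sorted bulk RNA, fewer cells of a type and less RNA per cell cannot be told apart.

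E2F and CHR letters in the promoters had different shares in S phase and mitotic members, while the CCAAT box was frequent in both. As examples, 5 windows, chosen after their values were seen, are printed. Bub1, Plk1 and Kif11 stand for mitotic members that read lower in KO. Kif23 is the mitotic member that read the other way, and Mcm6 is an S phase member whose group means hardly differed. Each window is from RefSeq on GRCm38.p6, holds 300 bases from 250 before to 50 after the gene start, and is written on the strand of the gene. They lie at chr2:127831810-127832109 (minus strand, Bub1), chr7:122159185-122159484 (plus, Plk1), chr19:37376132-37376431 (plus, Kif11), chr9:61946750-61947049 (minus, Kif23) and chr1:128359656-128359955 (minus, Mcm6). Capitals mark, on either strand, CHR letters (TTTGAA or TTCGAA) and the CCAAT box in the mitotic genes, and E2F letters (TTTCCCGC, TTTGGCGC, TTTCGCGC or TTTGCCGC) in Mcm6. Mcm6 also has CCAAT boxes that begin at -57 and -14 from the gene start, left in lower case.
Bub1: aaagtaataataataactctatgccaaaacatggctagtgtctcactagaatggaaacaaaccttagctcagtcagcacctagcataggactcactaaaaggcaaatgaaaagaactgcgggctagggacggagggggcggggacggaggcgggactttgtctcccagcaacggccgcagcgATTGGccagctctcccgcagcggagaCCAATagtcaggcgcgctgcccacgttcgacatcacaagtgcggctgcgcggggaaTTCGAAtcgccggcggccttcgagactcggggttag
Plk1: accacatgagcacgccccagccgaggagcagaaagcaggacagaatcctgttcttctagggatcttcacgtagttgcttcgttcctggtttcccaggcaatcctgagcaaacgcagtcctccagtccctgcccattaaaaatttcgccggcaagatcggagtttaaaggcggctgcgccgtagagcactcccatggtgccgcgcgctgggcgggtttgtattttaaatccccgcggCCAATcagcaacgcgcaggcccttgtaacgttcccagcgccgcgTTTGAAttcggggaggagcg
Kif11: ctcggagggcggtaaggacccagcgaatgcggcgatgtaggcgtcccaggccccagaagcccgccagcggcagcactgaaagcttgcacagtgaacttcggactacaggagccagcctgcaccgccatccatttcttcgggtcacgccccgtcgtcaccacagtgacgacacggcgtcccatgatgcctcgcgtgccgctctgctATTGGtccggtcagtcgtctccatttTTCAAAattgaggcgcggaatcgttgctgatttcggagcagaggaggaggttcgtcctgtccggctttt
Kif23: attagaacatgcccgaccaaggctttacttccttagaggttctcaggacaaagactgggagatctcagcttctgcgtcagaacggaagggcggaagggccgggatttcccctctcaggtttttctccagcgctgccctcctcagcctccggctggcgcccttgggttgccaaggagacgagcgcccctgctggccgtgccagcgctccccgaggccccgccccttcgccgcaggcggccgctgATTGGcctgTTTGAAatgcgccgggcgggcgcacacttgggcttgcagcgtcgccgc
Mcm6: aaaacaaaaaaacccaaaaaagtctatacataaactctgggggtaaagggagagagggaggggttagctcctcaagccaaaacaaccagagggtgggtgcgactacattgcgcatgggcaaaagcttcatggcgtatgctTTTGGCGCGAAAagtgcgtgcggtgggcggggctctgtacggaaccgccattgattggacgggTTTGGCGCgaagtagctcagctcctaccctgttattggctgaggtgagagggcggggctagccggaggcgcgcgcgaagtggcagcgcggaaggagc

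CHR is the cell cycle genes homology region, a site bound by MuvB complexes, and the CCAAT box is bound by NF-Y. CHR letters were found in 13 of the 17 windows of mitotic members, 76.5%, against 3 of 14 windows of S phase members (21.4%) and 19.2% of all 32851 promoter windows. The CCAAT box was in 15 of the 17 (88.2%) and in 10 of the 14 (71.4%), against 37.4% of all windows. E2F letters were in 6 of the 14 windows of S phase members, 42.9%, against 2.26% of all windows and 1 of 17 among mitotic members. A window was available for 36 of the 46 members, and Ccnd3 and Mcm7 had more than 1. In Bub1 the CHR letters begin at position 15 counted from the start, in Plk1 at 31 and in Kif23 at 3, while in Kif11 they begin at -19. The 3 E2F matches of Mcm6 begin at -110, -106 and -47, and the first pair overlap. Such matches describe letters in a window and do not show binding. The 15 measured members with CHR letters, 13 of them mitotic, had a median difference of -0.63 and the 19 without had -0.38. WT 3 lay above all KO arrays for 4 of the 15 and for 5 of the 19, with 18.1% of all genes. For E2F letters the medians went the other way, at -0.31 with a match (7 members) and -0.52 without (27). For the CCAAT box they were -0.56 with a match (24 members) and -0.47 without (10). Kif23 carries both CHR and CCAAT letters close to its start, as Bub1 and Plk1 do, and differed in the other direction.

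**Figure D1:**
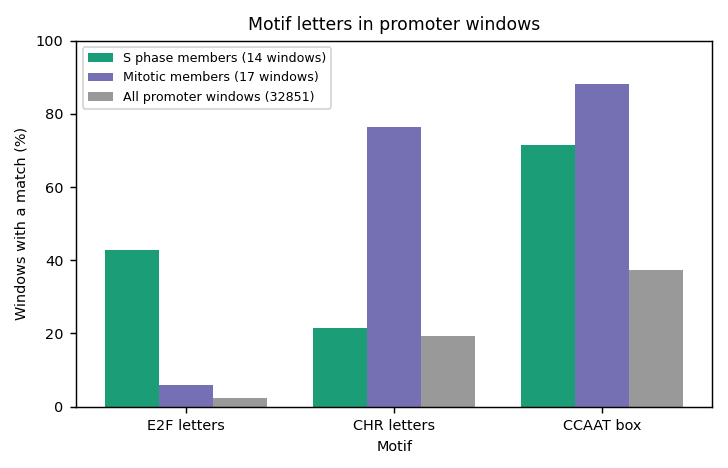
Bars give the percentage of promoter windows that hold each motif, for the S phase members, the mitotic members and all windows in the reference table. The CHR bar of the mitotic members stands at 76.5%, against 19.2% for all windows.

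No member had an adjusted p under 0.05 in limma (0 of 42), where the background was 0% (0 of 19505 genes). Without adjustment, 3820 genes had a p under 0.05. Adjusted p of the 42 members lay between 0.223 and 0.985. The mean was lower in KO for 39 of the 42 (7812 of all 19505 genes). The median difference was -0.57, against 0.06 over all genes tested. At an unadjusted p under 0.05, 28 members were lower in KO (66.7%, with 10.6% of all genes) and 0 were higher (8.98% of all genes). With arrays centred on their own medians, those counts were 25 and 1 for the members, and for all genes 1770 lower and 2632 higher in place of 2068 and 1752. All KO values lay below all WT values for 12 members (28.6%, with 5.92% of all genes), and above them for 0 (7.85% of all genes). These 12 were Ccne2, Cdt1, Rrm2, Bub1, Kif11, Kif20a, Plk1, Top2a, Ccnd2, Cdk2, E2f1 and Mybl1. For WT 3 alone, 14 of the 42 lay above all KO arrays (18.1% of all genes). Another 26 lay within the KO range (11252 of all 19505 genes) and 2 below it (24.2% of all genes). Those 14 include the 12 genes above by definition, and add Mcm4 and Pcna. The 2 below were Cdc45 and Ccnd3. Without WT 1 and WT 2, 3 of the 42 kept an unadjusted p under 0.05 and were lower in KO, with 3.05% of all genes. They were Mybl1, Bub1 and Kif11 (limma, adjusted p = 0.454, 0.79 and 0.834). Without WT 3, 30 members passed the adjusted threshold, as did 4931 of all genes (25.3%). WT 3 also lay above all KO arrays for 19 of 22 melanocyte markers (86.4%). The part of the melanocyte, cDC1 and other cell signal of the WT arrays, WT 3 included, in these differences was not tested.

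**Figure D2:**
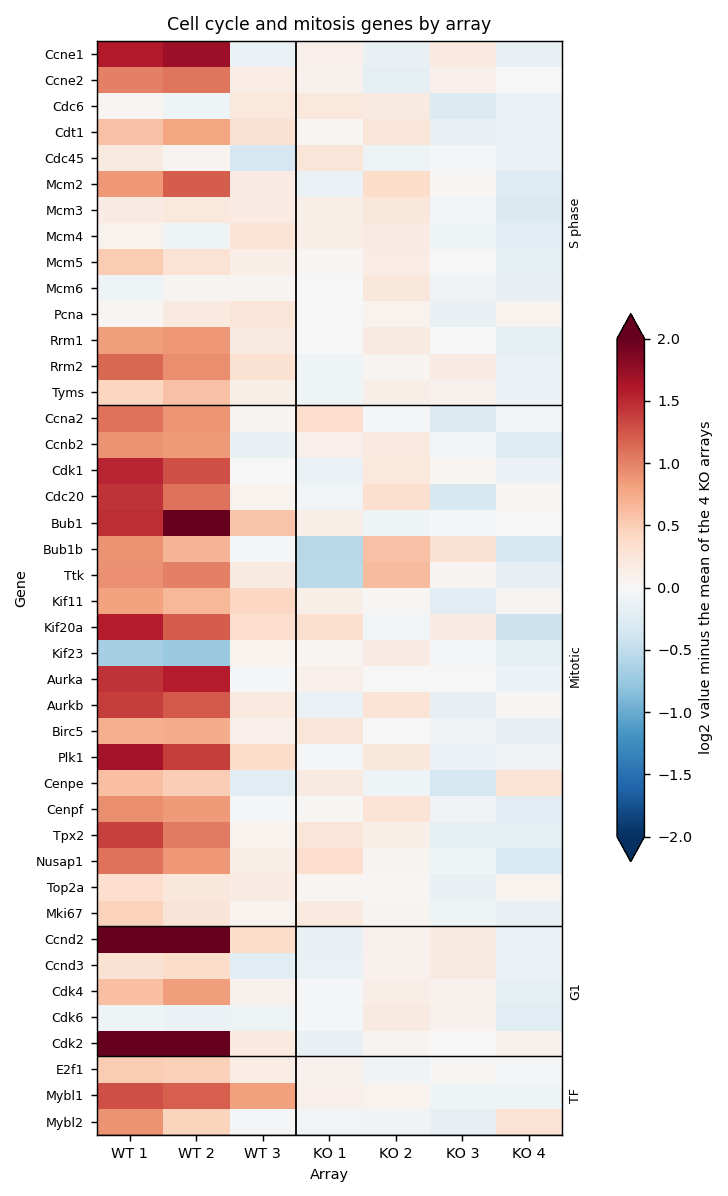
Each row is 1 of the 42 measured genes and each column 1 array, coloured by the log2 value minus the mean of the 4 KO arrays, with colours saturated beyond 2 in size (G1, cyclins and kinases of the G1 to S transition; TF, transcription factors). Red stands on WT 1 and WT 2 in most rows, with Kif23 blue, while WT 3 looks like the KO arrays in most rows.

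**Figure D3:**
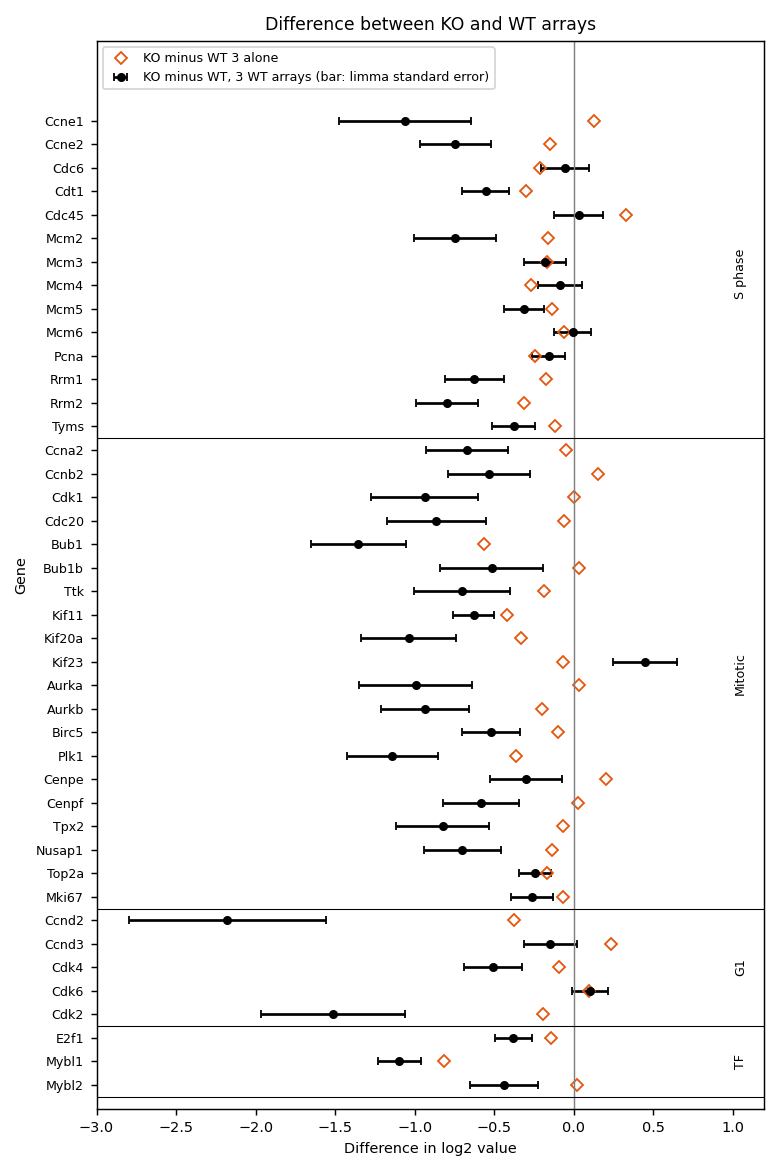
Black points give the KO minus WT difference of each gene with its limma standard error, and open diamonds give KO minus WT 3 alone. The diamonds lie closer to 0 for most genes, and that of Mybl1 stays at -0.81.

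Among the S phase genes, the E cyclins, Rrm2 and Mcm2 had the widest differences, and the other helicase subunits had narrower ones. The list had 13 of 14 measured members lower in KO, 8 of them at an unadjusted p under 0.05 (57.1%, with 10.6% of all genes). Ccne1, the E cyclin that starts S phase with CDK2, read 11.58, 11.70 and 9.85 in WT and 10.09, 9.84, 10.18 and 9.83 in KO. WT 1 and WT 2 were high, and WT 3 lay inside the KO range. Its difference was -1.06 with a standard error of 0.41 (limma, adjusted p = 0.235), and 0.13 against WT 3 alone. Ccne2, the other E cyclin, read 10.18, 10.24 and 9.31 in WT and 9.24, 8.99, 9.27 and 9.16 in KO. The groups did not overlap, yet WT 3 stood close to KO 3.

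Origins are licensed when CDC6 and CDT1 load the MCM helicase, and CDC45 joins when they fire. Cdt1 read 10.32, 10.53 and 10.04 in WT and 9.78, 9.98, 9.60 and 9.61 in KO, with no overlap. Cdc6 read 9.11, 8.99 and 9.29 in WT and 9.29, 9.26, 8.80 and 8.96 in KO. Cdc45 read 8.77, 8.64 and 8.25 in WT and 8.83, 8.49, 8.56 and 8.45 in KO. Both overlapped between groups, with differences of -0.05 and 0.03. Within the MCM helicase, Mcm2 read 11.83, 12.18 and 11.12 in WT and 10.84, 11.33, 10.99 and 10.71 in KO, a difference of -0.75 (standard error 0.26). WT 1 and WT 2 lay above all KO arrays and WT 3 below KO 2. Mcm6 read 10.83, 10.97 and 10.98 in WT and 10.93, 11.15, 10.85 and 10.76 in KO, a difference of -0.0048 with a standard error of 0.12. The direction for Cdc6 and Mcm6 was higher in KO after median centring (0.0052 and 0.054) or quantile normalization (0.039 and 0.042). The difference was -0.31 for Mcm5, -0.18 for Mcm3 and -0.09 for Mcm4. Subunits of a single complex thus ranged from -0.75 to -0.0048.

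Pcna, the sliding clamp of DNA polymerases, read 12.12, 12.27 and 12.32 in WT and 12.07, 12.16, 11.94 and 12.16 in KO. WT 3 was the highest of the 7 arrays, and the difference was -0.16. The nucleotide enzymes were lower in KO by more. Rrm2, the regulated subunit of ribonucleotide reductase, read 9.92, 9.71 and 9.09 in WT and 8.68, 8.83, 8.94 and 8.64 in KO. All WT arrays lay above all KO arrays, with WT 3 nearest to KO, and the difference was -0.80 with a standard error of 0.20 (limma, adjusted p = 0.223). Rrm1, the large subunit, differed by -0.62, and Tyms, thymidylate synthase, by -0.38, and both had WT 3 within the KO range.

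The mitotic genes had 19 of 20 measured members lower in KO, 15 at an unadjusted p under 0.05 (75%, with 10.6% of all genes). Their median difference was -0.69. WT 1 and WT 2 were high for nearly all of them. Cdk1, the kinase that drives entry into mitosis, read 11.56, 11.32 and 10.03 in WT and 9.91, 10.25, 10.07 and 9.92 in KO. WT 3 fell between KO values, and the difference was -0.94 over all arrays and 0.0035 against WT 3 alone. Its cyclin partners had differences of -0.67 for Ccna2 and -0.53 for Ccnb2, and values against WT 3 alone of -0.05 and 0.15.

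Plk1, a kinase of spindle assembly and cytokinesis, read 11.59, 11.32 and 10.29 in WT and 9.90, 10.15, 9.80 and 9.85 in KO. The groups did not overlap, WT 3 lay 0.36 above the KO mean, and WT was 2.20-fold higher (limma, adjusted p = 0.223). Aurka, the centrosomal Aurora kinase, read 9.86, 9.99 and 8.38 in WT and 8.53, 8.43, 8.41 and 8.31 in KO. Here WT 3 lay inside the KO range. Aurkb, the Aurora kinase of the chromosomal passenger complex, and Birc5, its partner survivin, differed by -0.93 and -0.52, with WT 3 inside the KO range. Tpx2, which activates Aurora A on spindles, differed by -0.82 and Nusap1, a microtubule bundler, by -0.70, with -0.06 and -0.13 against WT 3 alone.

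The spindle checkpoint kinases differed from each other in their spread. Bub1 read 9.40, 9.95 and 8.49 in WT and 8.05, 7.85, 7.89 and 7.91 in KO. All WT arrays lay above the KO arrays, which had an SD of 0.09. WT 3 stood 0.56 above the KO mean, and WT was 2.56-fold higher over the 3 arrays. Bub1b, which encodes the checkpoint protein BubR1, read 8.70, 8.48 and 7.76 in WT and 7.25, 8.39, 8.10 and 7.46 in KO. Ttk, the MPS1 kinase, read 8.15, 8.24 and 7.42 in WT and 6.70, 7.87, 7.29 and 7.07 in KO. For Bub1b and Ttk the KO SD was 0.53 and 0.49, the largest of the 42 members, with KO 2 highest and KO 1 lowest in both. Ttk on KO 1 also lay below the median of the negative control probe sets there, 6.88, the only member below that median on any array. At 9.37 to 10.19 by array, the 95th percentile of those probe sets exceeded every value of Bub1b, Ttk, E2f1 and Mybl1. It also exceeded the WT 3 and KO values of Bub1, Kif11 and Kif20a, among others. Cdc20, which activates the anaphase promoting complex once the checkpoint is satisfied, read 10.62, 10.26 and 9.24 in WT and 8.87 to 9.50 in KO.

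The mitotic kinesins split. Kif11, which pushes spindle poles apart, read 9.46, 9.32 and 9.07 in WT and 8.77, 8.68, 8.45 and 8.71 in KO. All 3 WT arrays were above the KO arrays, and WT 3 stood 0.42 above the KO mean. Kif20a, a kinesin of cytokinesis, read 9.74, 9.38 and 8.50 in WT and 8.48, 8.11, 8.33 and 7.75 in KO, with WT 3 only just above KO 1. Kif23, a centralspindlin subunit that works in the same midzone, read 9.83, 9.73 and 10.55 in WT and 10.52, 10.65, 10.46 and 10.29 in KO. WT 1 and WT 2 were the lowest arrays and WT 3 lay among the KO arrays. Its difference was 0.45 with a standard error of 0.20 (limma, adjusted p = 0.265), the reverse of the other 19 mitotic members, and it was -0.06 against WT 3 alone. Cenpe and Cenpf, of the outer kinetochore, differed by -0.30 and -0.58, and by 0.20 and 0.03 in the other direction against WT 3 alone.

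Mki67 and Top2a, which are widely used proliferation markers, had the narrowest differences of the mitotic members. Mki67, which encodes Ki-67, read 12.14, 11.93 and 11.74 in WT and 11.87, 11.73, 11.59 and 11.52 in KO, a difference of -0.26 with overlap. Top2a, topoisomerase II alpha, read 10.35, 10.23 and 10.17 in WT and 10.04, 10.03, 9.86 and 10.08 in KO. The groups did not overlap, and the difference was -0.24 (limma, adjusted p = 0.246).

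**Figure D4:**
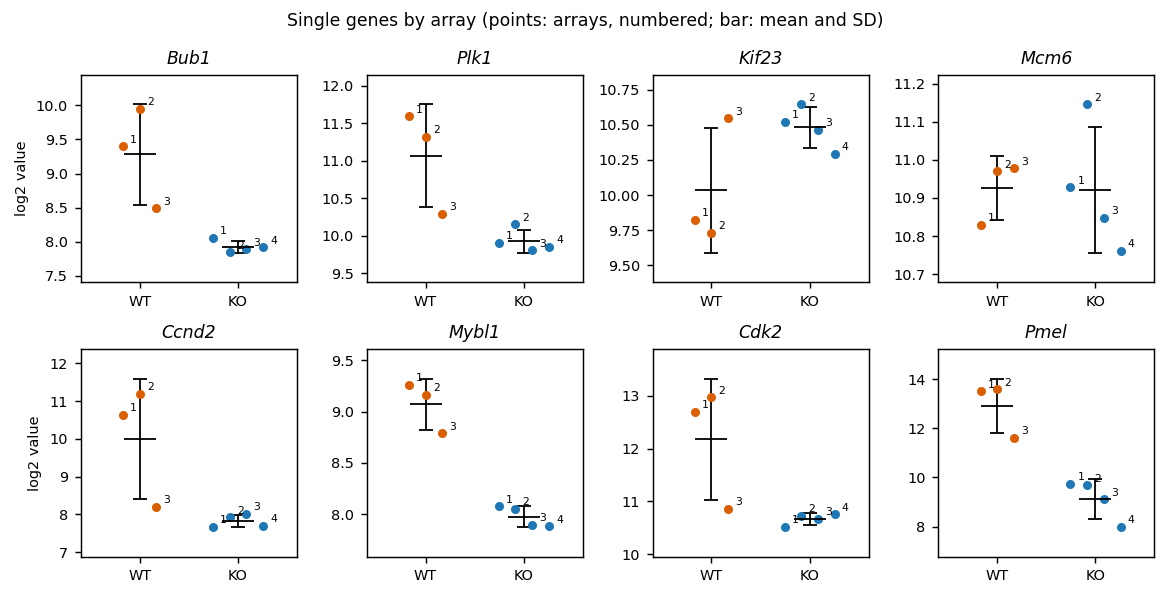
Points give the log2 value of each array, numbered as labelled, with the mean and SD of each group, for 7 members and the melanosome gene Pmel. WT 3 lies near the KO arrays for Plk1, Ccnd2 and Cdk2, and apart from them for Mybl1 at 8.79.

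Of the G1 genes, Ccnd2 and Cdk2 had the widest differences among the 42 members. Ccnd2, a D cyclin that activates CDK4 and CDK6, read 10.63, 11.19 and 8.20 in WT and 7.68, 7.92, 8.02 and 7.71 in KO. All WT arrays were above KO, but WT 3 by far less than the other pair, at 0.37 above the KO mean. The difference was -2.18 with a standard error of 0.62 (limma, adjusted p = 0.223), and -0.37 against WT 3 alone. Cdk2, the partner of cyclins E and A, read 12.70, 12.98 and 10.86 in WT and 10.51, 10.72, 10.67 and 10.75 in KO, a difference of -1.51. In the RefSeq annotation Cdk2 lies wholly inside the annotated span of Pmel, a melanosome protein gene. Pmel read 13.51, 13.59 and 11.62 in WT and 9.75, 9.68, 9.11 and 7.99 in KO. How far signal from Pmel transcripts reaches the Cdk2 probes was not tested, so the Cdk2 value is uncertain.

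The other G1 genes differed less. Ccnd3, another D cyclin, read 13.22, 13.28 and 12.68 in WT and 12.78 to 13.09 in KO, with WT 3 the lowest of the 7 arrays. Cdk4 differed by -0.51 and had WT 3 inside the KO range. Cdk6 read 10.10, 10.06 and 10.08 in WT and 10.14, 10.35, 10.26 and 9.97 in KO. It was 0.10 higher in KO with a standard error of 0.11, so Cdk4 and Cdk6, which share D cyclins, had differences of opposite sign.

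E2f1, the transcription factor that switches on S phase genes, read 9.05, 9.01 and 8.68 in WT and 8.62, 8.46, 8.55 and 8.50 in KO. The groups did not overlap, though WT 3 was only 0.14 above the KO mean, and the difference was -0.38. Mybl2, which encodes B-Myb, read 10.77, 10.32 and 9.86 in WT and 9.82, 9.80, 9.72 and 10.17 in KO, with overlap through KO 4. Its relative Mybl1, A-Myb, read 9.26, 9.17 and 8.79 in WT and 8.08, 8.05, 7.90 and 7.88 in KO. Mybl1 differed by -1.10 with a standard error of 0.14 (limma, adjusted p = 0.223) and by -0.81 against WT 3 alone, the widest such value of the 42.

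S phase and mitotic genes were then set side by side on each array, with every gene taken relative to its own KO mean. On the arrays labelled WT 1 and WT 2 the mitotic mean was 0.999 and 0.88, and the S phase mean 0.53 and 0.56. WT 3 had 0.12 for mitotic and 0.13 for S phase genes, where KO arrays ranged from -0.11 to 0.15 and from -0.14 to 0.11. Thus the mitotic mean of WT 3 lay inside the KO range and its S phase mean just above it. The S phase mean minus the mitotic mean was -0.47, -0.32 and 0.02 in the order of the WT arrays, and lay between -0.03 and 0.06 in KO. As group means these gaps were -0.26 ± 0.25 (SD, n = 3) in WT with an SD of 0.05 (n = 4) in KO. Melanocyte markers on the same scale averaged 3.34, 3.62 and 1.07 in WT and -0.29 to 0.22 in KO. For cDC1 identity genes it was -0.66, -2.24 and -0.08. The cDC2 list stood at -0.18, 2.07 and 0.41 in WT, and the monocyte and macrophage list at -0.15, 1.19 and 0.54. Their part in the phase gap was not tested.

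**Figure D5:**
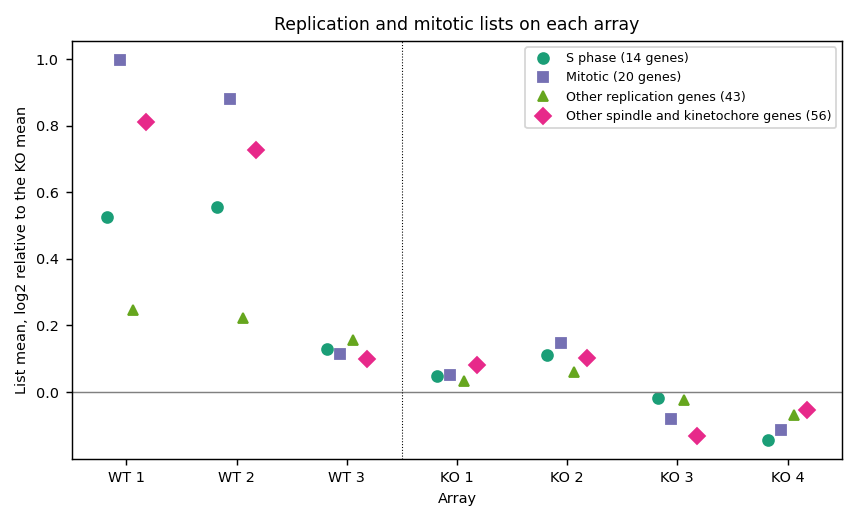
Points give the mean of each list on each array, in log2 units relative to the KO mean, for the S phase and mitotic members and for other replication and spindle genes. On WT 1 the mitotic point is at 0.999 and the S phase point at 0.53, while all 4 lists lie between 0.10 and 0.16 on WT 3.

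Within KO the members also varied by array. KO 2 was the highest KO array for 20 of the 42 members and KO 4 the lowest for 21. The matching counts over all genes are not given here. Relative to the KO mean, KO 1 to KO 4 averaged 0.03, 0.12, -0.04 and -0.11 over the members. Over all 19505 genes they averaged 0.0092, 0.0096, 0.0011 and -0.0199, so KO 2 was highest and KO 4 lowest there too. In the S phase list KO 4 was lowest for 10 of 14, and in the mitotic list KO 3 and KO 4 were each lowest for 8 of 20. The median SD of the 42 members was 0.44 in WT and 0.17 in KO, against 0.20 and 0.14 over all genes.

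Other genes of the pathway were examined in the same fit, and those named have the lowest unadjusted p of their list. None of 143 passed the adjusted threshold. At an unadjusted p under 0.05, 58 were lower in KO (40.6%, with 10.6% of all genes) and 2 higher (8.98% of all genes). The median difference was -0.29. The spindle and kinetochore list had 53 of 56 lower, 33 at an unadjusted p under 0.05 (58.9%). Ect2, an activator of RhoA at the cleavage furrow, read 8.34, 8.34 and 7.99 in WT and 7.67, 7.14, 7.43 and 7.30 in KO. Cenpk, an inner kinetochore protein, and Mad2l1, the checkpoint protein MAD2, differed by -0.85 and -0.76, and Smc2, a condensin subunit, by -0.73. For these 4 genes WT 3 lay above all KO arrays and below WT 1 and WT 2. On average the list stood at 0.81, 0.73 and 0.10 in WT.

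The other replication genes had 33 of 43 lower, 18 at an unadjusted p under 0.05 (41.9%, with 10.6% of all genes) and 1 higher at it. Their mean was 0.25, 0.22 and 0.16 on WT 1 to 3, so WT 3 stood nearer to the other WT arrays than in the mitotic lists. Of these 43, 20 had WT 3 above all KO arrays (46.5%, with 18.1% of all genes). Rfc3, a clamp loader subunit, differed by -0.65, Uhrf1, which maintains DNA methylation behind the fork, by -0.58, Prim1, a primase subunit, by -0.51 and Pole, a replicative polymerase, by -0.39. Rfc3 read 9.11, 9.24 and 8.75 in WT and 8.27, 8.24, 8.37 and 8.65 in KO, without overlap.

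Genes that brake the cycle did not form a single direction. Of 8 CDK inhibitors 5 were lower and 3 higher in KO, 2 lower at an unadjusted p under 0.05 (25%, with 10.6% of all genes). Cdkn1a, the inhibitor p21, read 12.93, 13.14 and 11.84 in WT and 11.48, 10.90, 10.93 and 11.38 in KO, a difference of -1.46. WT 3 stood above all KO arrays for Cdkn1a. It lay within the KO range for 15 of the 20 mitotic members, and for 11252 of all 19505 genes. Cdkn2d, p19, differed by -0.82, Cdkn3 by -0.33 and Cdkn1c, p57, by 0.26. Among 16 checkpoint and CDK control genes 4 were lower at an unadjusted p under 0.05 (25%, with 10.6% of all genes). Another 1 was higher at it (8.98% of all genes). Wee1, the kinase that holds CDK1 inactive, read 10.62, 10.75 and 10.65 in WT and 10.33, 10.06, 10.13 and 10.34 in KO. Its 3 WT arrays lay close together and above KO. Fbxo5, an inhibitor of the anaphase promoting complex, differed by -0.73, and the phosphatases Cdc25c and Cdc25b by -0.50 and -0.47. Cdc25c was above the negative control median on only 2 of the 7 arrays. Of 20 genes of the RB, E2F, MuvB and MYC group 1 was lower at an unadjusted p under 0.05 (5%, with 10.6% of all genes). It was Lin9, a MuvB subunit, at -0.31. E2f3 differed by 0.32, E2f2 by -0.57 (0.09 against WT 3 alone) and E2f6 by -0.23.

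Some members share genome sequence with other genes, and whether the probes separate them was not tested. In the annotation 11 of the 42 overlap a protein-coding gene, 12 such genes in all. Besides Pmel, Oip5, a centromere protein gene that overlaps Nusap1, read 8.65, 8.19 and 7.35 in WT and 7.08, 6.32, 7.28 and 7.22 in KO, a difference of -1.09. The other 10 overlapping genes had differences between -0.24 and 0.26. Annotated strands were opposite for Nusap1 and Oip5, and for Cdc45, Cdc20, Aurka, Ccnd3 and Cdk4 with their overlapping genes. They were the same for E2f1 and its overlapping gene, and incomplete for the other pairs, among them Cdk2 and Pmel.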

How the data were processed

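RNA abundance was measured on 7 arrays of sorted splenic cDC1, 3 WT and 4 KO, grouped by sample title. Per the labels' protocols, column-prepared total RNA was labelled with a whole-transcript kit. The authors deposited 1 table of 28846 probe sets in log2 units, made with RMA in Expression Console 1.1 (Affymetrix), per the submitters' processing notes. The log2 scale was read from the values, 3.68 to 14.28. RMA compresses low signals, which understates changes of dim genes, and 7 arrays limit the precision. Scanner files were not analysed here.

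For 19572 probe sets with 1 gene symbol, the one with the highest mean per symbol was kept, giving 19505 genes. A further 2634 transcript probe sets are unnamed here. No column was left unmapped (0). KO was compared with WT in limma 3.58.1 (R 4.3.3; lmFit and eBayes without covariates). P-values were adjusted over all 19505 genes by Benjamini-Hochberg, and the threshold was 0.05. The script was tested on simulated data. Lists are described by counts and medians, without set tests. The members, lists and alternatives were chosen with earlier results of these data known. All 46 members were accounted for, and up to 4 genes of each other list were named by unadjusted p. Cdk2 with Pmel and Oip5 were singled out after their values were seen. Promoter windows came from RefSeq (GRCm38.p6), matched by symbol. No coordinates are given for probe sets, whose genome build was not given in the sources used. Alternatives were each array left out, WT 1 and WT 2 left out, centring, quantile normalization, probe set means, a dim filter, trended robust variance, array weights and the replicate number as a block.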

Additional observations from a re-analysis of the deposited data

Results flagged for a closer look

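Of 71 groups of 4 KO arrays examined for a single distant array, 1 stood out, where chance alone gives about 1 in 20. Cenpk, an inner kinetochore gene, read 7.22 on KO 1 and 6.94 to 6.96 on the other KO arrays. KO 1 was still below all 3 WT arrays. None of the 42 members stood out in this way (0).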

How the results depend on the processing

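With each array left out in turn, genes past the adjusted threshold ranged from 0 to 4931 and members past it from 0 to 30, the upper values being those without WT 3. Members lower in KO at an unadjusted p under 0.05 ranged from 12 (without WT 1; 13 without WT 2, 15 without KO 4) to 34, and higher ones from 0 to 1. Over all 19505 genes the lower ones numbered 1119 without WT 1, 994 without WT 2, 1446 without KO 4 and 3492 without WT 3. Members with all KO values below all WT values ranged from 12 to 34 (21 without KO 2), and with all above from 0 to 1. The matching shares of all genes are not given here for these refits, and fewer arrays make such separation easier. The S phase mean ranged from -0.54 to -0.33, the mitotic mean from -0.94 to -0.50 and their gap from 0.15 to 0.40. Without WT 1 and WT 2 together these became -0.13, -0.12 and -0.015, with 0 members past the adjusted threshold, 3 lower at an unadjusted p under 0.05 and 2 with all KO values above WT 3. With the lone WT array assumed to vary like the KO arrays, Ccne1 (0.13), Ccnb2 (0.15), Cdk1 (0.0035), Bub1b (0.035), Aurka (0.037), Cenpe (0.20), Cenpf (0.027), Ccnd3 (0.23), Mybl2 (0.0195), E2f2 (0.088) and Kif23 (-0.064) then changed sign. Array weights gave 4458 genes and 31 members past the threshold and 1 member higher at an unadjusted p under 0.05; they weight WT 1 at 1.95 and WT 3 at 0.24, and Cdc45 (-0.11) and Mcm6 (0.045) changed sign. Median centring and quantile normalization each gave 1 member higher at an unadjusted p under 0.05, with Cdc6 at 0.0052 and 0.039 and Mcm6 at 0.054 and 0.042. Leaving out single arrays changed the sign of Mcm6 (-0.0797 to 0.0485), Cdc6 (-0.12 to 0.038), Cdc45 (-0.12 to 0.14) and Mcm4 (-0.17 to 0.0046) in at least 1 case. The other alternatives kept these counts within 1.5 times. In all, 28 of the 42 members kept their sign under the 15 refits. E2F letters were in 28.6% of S phase windows when only the 150 bases nearest the start were searched; CHR letters stayed at 76.5% of mitotic windows.

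The replicate number was tried as a block on arrays 1 to 3 of each group, which gave 0 genes and 0 members past the adjusted threshold. In that fit 22 members were lower at an unadjusted p under 0.05, with 1473 of all 19505 genes. Mcm6 was at 0.0485. Deviations of same-numbered arrays correlated across genes at -0.04, 0.05 and -0.02, so the numbers were not taken as pairs.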
